A study of Mus musculus with 4 samples.

Results

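The 80 genes described here are the heat shock proteins, their J-domain partners and the cytosolic chaperonin, out of 18436 genes in a table of RNA abundance from sorted intestinal stem cells. They were picked by symbol alone, as every gene whose name began with Hspa, Hspb, Hspd, Hspe, Hsph, Hsp90, Dnaja, Dnajb, Dnajc or Cct followed by its number, together with Tcp1. By family they were 11 HSP70 genes, 3 HSP110, 3 HSP90, 2 of the mitochondrial HSP60 and HSP10 ring, 6 small heat shock genes, 42 J-domain genes (4 DnaJ A, 12 DnaJ B and 26 DnaJ C), 10 CCT genes and 3 that match by name only. CREPT, encoded by Rprd1b, is a regulator of RNA polymerase II and Wnt target genes, and the comparison asked what its deletion does to gene expression in Lgr5-GFP high cells, the brightest GFP cells of the crypt. RNA was sequenced from these cells of 2 Lgr5-WT mice, which carried Lgr5-EGFP-IRES-creERT2, and of 2 Lgr5-CREPTKO mice, which carried the same knock-in with CREPT fl/fl. All 4 mice were C57BL/6 and received tamoxifen by intraperitoneal injection at 1 mg a day for 5 days, with sorting on day 7, so the Lgr5-WT cells also held the activated Cre. GFP and Cre are driven from Lgr5 and the allele is known to be mosaic, so crypt cells without GFP were not sampled. Mice of 6 to 8 weeks and of both sexes were used in the study, and the sex of each was not given.

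HSP70 proteins bind exposed hydrophobic stretches of unfolded polypeptides in cycles of ATP hydrolysis. J-domain proteins, the DnaJ families, bring clients and trigger that hydrolysis, and HSP110 proteins exchange the nucleotide so that the client is released. HSP90 completes the maturation of kinases and receptors, the HSP60 and HSP10 ring folds proteins in mitochondria, the CCT ring folds actin and tubulin in the cytosol, and small heat shock proteins hold clients without ATP. In heat or proteotoxic stress, the factor Hsf1 activates many of these genes through inverted repeats of the unit GAA, and in stress of the endoplasmic reticulum (ER) Atf6 acts through an ER stress element.

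The letters of those elements were searched in promoter windows from RefSeq on GRCm38.p6, of which 85 windows belonged to 66 of the 80 genes. The genes without a window, among them Hspa8, Hsp90ab1 and Hsp90aa1, were not searched. Short sequences are shown for Hspe1 and Hsph1, which are among the genes with a longer run of the heat shock unit. The 250 bases before the annotated transcript start are shown for the near-identical pair Hspa1a and Hspa1b and for the ER chaperones Hspa5 and Hsp90b1. Capitals mark GAANNTTC or TTCNNGAA in the first 5 sequences and the ER stress element, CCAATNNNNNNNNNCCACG or its reverse complement, in the last 2. All are written 5′ to 3′ on the strand of the gene, and those of Hsph1 come from 1 of its windows.
Hspe1 (chr1:55088053-55088082, plus strand): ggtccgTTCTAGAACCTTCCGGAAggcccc
Hsph1 before the start (chr5:149636356-149636375, minus strand): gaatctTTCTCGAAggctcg
Hsph1 after the start (chr5:149636287-149636306, minus strand): tgcagaTTCTGGAAAGTTCt
Hspa1a (chr17:34972157-34972406, minus strand): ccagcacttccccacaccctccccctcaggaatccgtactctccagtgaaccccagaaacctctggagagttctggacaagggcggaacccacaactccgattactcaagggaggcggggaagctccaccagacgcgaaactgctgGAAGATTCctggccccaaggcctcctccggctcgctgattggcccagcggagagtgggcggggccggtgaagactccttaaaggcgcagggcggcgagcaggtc
Hspa1b (chr17:34959239-34959488, minus strand): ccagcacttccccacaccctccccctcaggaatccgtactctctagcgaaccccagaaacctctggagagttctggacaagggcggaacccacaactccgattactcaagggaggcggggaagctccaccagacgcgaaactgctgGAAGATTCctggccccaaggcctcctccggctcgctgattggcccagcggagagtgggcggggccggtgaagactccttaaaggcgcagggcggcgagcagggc
Hspa5 (chr2:34771840-34772089, plus strand): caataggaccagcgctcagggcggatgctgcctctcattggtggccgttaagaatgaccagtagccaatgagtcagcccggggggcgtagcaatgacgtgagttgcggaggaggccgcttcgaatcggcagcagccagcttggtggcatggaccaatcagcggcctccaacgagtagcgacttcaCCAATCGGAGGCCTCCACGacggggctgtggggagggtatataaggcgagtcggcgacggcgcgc
Hsp90b1 (chr10:86705445-86705694, minus strand): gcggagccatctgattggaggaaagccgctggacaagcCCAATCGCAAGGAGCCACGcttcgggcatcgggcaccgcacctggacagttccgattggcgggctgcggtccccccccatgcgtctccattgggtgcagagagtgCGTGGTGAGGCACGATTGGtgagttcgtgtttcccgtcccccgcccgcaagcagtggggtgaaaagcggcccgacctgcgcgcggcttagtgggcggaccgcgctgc

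Both letter patterns of the heat shock unit are their own reverse complement, so a search of either strand covers both, and they overlap where GAA and TTC alternate. GAANNTTC was present in 16 of the 85 member windows (18.8%) and in 7.86% of all 32851 windows of the same length. TTCNNGAA was present in 10 member windows (11.8%) and in 8.52% of all windows. The longer runs GAANNTTCNNGAA or TTCNNGAANNTTC stood in 6 member windows (7.06%), of Dnajb6, Hspd1, Hspe1 and Hsph1, and in 0.603% of all windows. In Hspe1 the pattern began at -89, -84 and -79 from the start, in Hsph1 at -33 and, past the start, at 37 and 42, and in Hspa1a and Hspa1b at -104. Hspd1 and Hspe1 lie head to head on chromosome 1, with annotated ends that overlap by 96 bases. Whether the run in a window of Hspd1 is the stretch shown for Hspe1 was not checked. The 250 bases shown for Hspa1a and Hspa1b were identical at 247 positions. The ER stress element was found in windows of Dnajc3, Hsp90b1 and Hspa5, 3 of the 11 ER genes with a window, against 0.119% of all windows. It began at -65 in Hspa5 and at -212 and, as the reverse complement, at -107 in Hsp90b1. These matches describe letters and not binding.

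Abundance was given as FPKM, fragments mapped to a transcript scaled by its length and by the size of the library, which is comparable between genes and is relative to the total of its own library. FPKM summed to between 468800 and 499300 a library, and the FPKM step of small RNA genes, which is inverse to depth, was 0.985 to 1.03 times that of Lgr5-WT mouse 1 in the other libraries. The absolute depth was not estimated. Rprd1b itself measured 17.7 and 18.1 FPKM in Lgr5-WT mice 1 and 2 and 6.65 and 7.36 FPKM in Lgr5-CREPTKO mice 1 and 2, with the knockout mice lower (log2 fold change -1.29, standard error 0.0946, adjusted p = 0.028 by limma), on a value that also counts reads outside the floxed exon 3. Stem cell markers were found in every library, with Olfm4 between 4932 and 5351 FPKM. All 4 listed were higher in both knockout mice, as were 25.6% of all genes tested, and none was called. Lgr5 measured 47.7 and 37.7 FPKM against 52.0 and 60.1 FPKM, and Ascl2 34.6 and 37.5 FPKM against 43.1 and 46.9 FPKM. The defining markers Col1a1, Col1a2 and Dcn of fibroblasts and Ddx4, Dazl and Prm1 of germ cells were under 0.3 FPKM. Of the 4 listed fibroblast markers only Vim was above that, at 3.97 and 4.53 FPKM against 1.07 and 2.22 FPKM. The 4 leukocyte markers summed to 510.3 and 1168 FPKM against 282 and 880.5 FPKM, nearly all of it Cd74, while Ptprc, Cd3e and Lyz2 were at most 2.02 FPKM. The secretory markers of enteroendocrine and goblet cells were lower in the knockout mice. The 6 enteroendocrine markers summed to 161 and 182 FPKM in Lgr5-WT mice and 49.2 and 60.9 FPKM in Lgr5-CREPTKO mice, with 4 called lower. The 5 goblet markers summed to 1100.0 and 1763 FPKM against 624 and 657 FPKM, with 1 called lower. The 3 tuft markers summed to 12.2 and 26.5 FPKM against 10.3 and 3.95 FPKM, each lower in both knockout mice and none called. The 4 Paneth markers summed to 1244 and 890.0 FPKM against 712 and 2124 FPKM, with the highest sum in Lgr5-CREPTKO mouse 2. Of these only Mmp7 was highest in Lgr5-WT mouse 2, at 36.0 and 67.0 FPKM against 26.7 and 39.7 FPKM. In bulk RNA, fewer cells of a type and less RNA per cell cannot be told apart.

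No heat shock or chaperonin gene passed the threshold for a difference between Lgr5-CREPTKO and Lgr5-WT cells, which does not show that the values were equal. Of the 80 genes, 71 had a mean of at least 0.5 FPKM and entered limma's moderated test on log2(FPKM + 0.5), a scale that understates the change of low genes. None was called lower and none higher at a Benjamini-Hochberg adjusted p below 0.05 over the 12621 genes tested, of which 3.08% were called. Among all genes 337 (2.67%) were lower and 52 (0.412%) higher, and after rescaling each library to a common total (TPM), the numbers were 243 and 85. With a log2 fold change beyond 1 as well, 1.01% of all genes were lower and 0.127% higher, and again no member. At an unadjusted p below 0.05, 9 of the 71 were lower and 3 higher, 12 in either direction, against 15.2%, 9.27% and 24.5% of all genes tested. Both Lgr5-CREPTKO mice lay below both Lgr5-WT mice for 25 members and above them for 11, 36 in all, where 31.0%, 25.6% and 56.6% of all genes did so. With TPM these counts became 17 and 21, so the balance of directions depended on the scaling. TPM multiplies all genes of a library by the same factor, larger for the Lgr5-CREPTKO libraries, whose FPKM sums were smaller. The shift is thus not particular to the members, and the shares of all genes with TPM were not counted. The median log2 fold change over the 71 was -0.072, with -0.014 over all genes. Of the members 46 were under 0 and 25 over 0, where 52.3% of all genes were under 0. By family the median was -0.15 for 9 HSP70 genes, -0.081 for 3 HSP90, -0.16 for HSP60 and HSP10, -0.46 for 2 small heat shock genes and -0.055 for 3 HSP110. With TPM the HSP110 median turned to 0.023, HSP90 came to -0.0023 and HSP70 to -0.082. With the correction for transcript length given further on, HSP60 and HSP10 turned to 0.0058 and HSP70 came to -0.073. With 2 mice in each genotype the smallest p of an exact permutation test, two-sided, is 0.333, so calls rest on the spread that limma shares across genes.

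**Figure D1:**
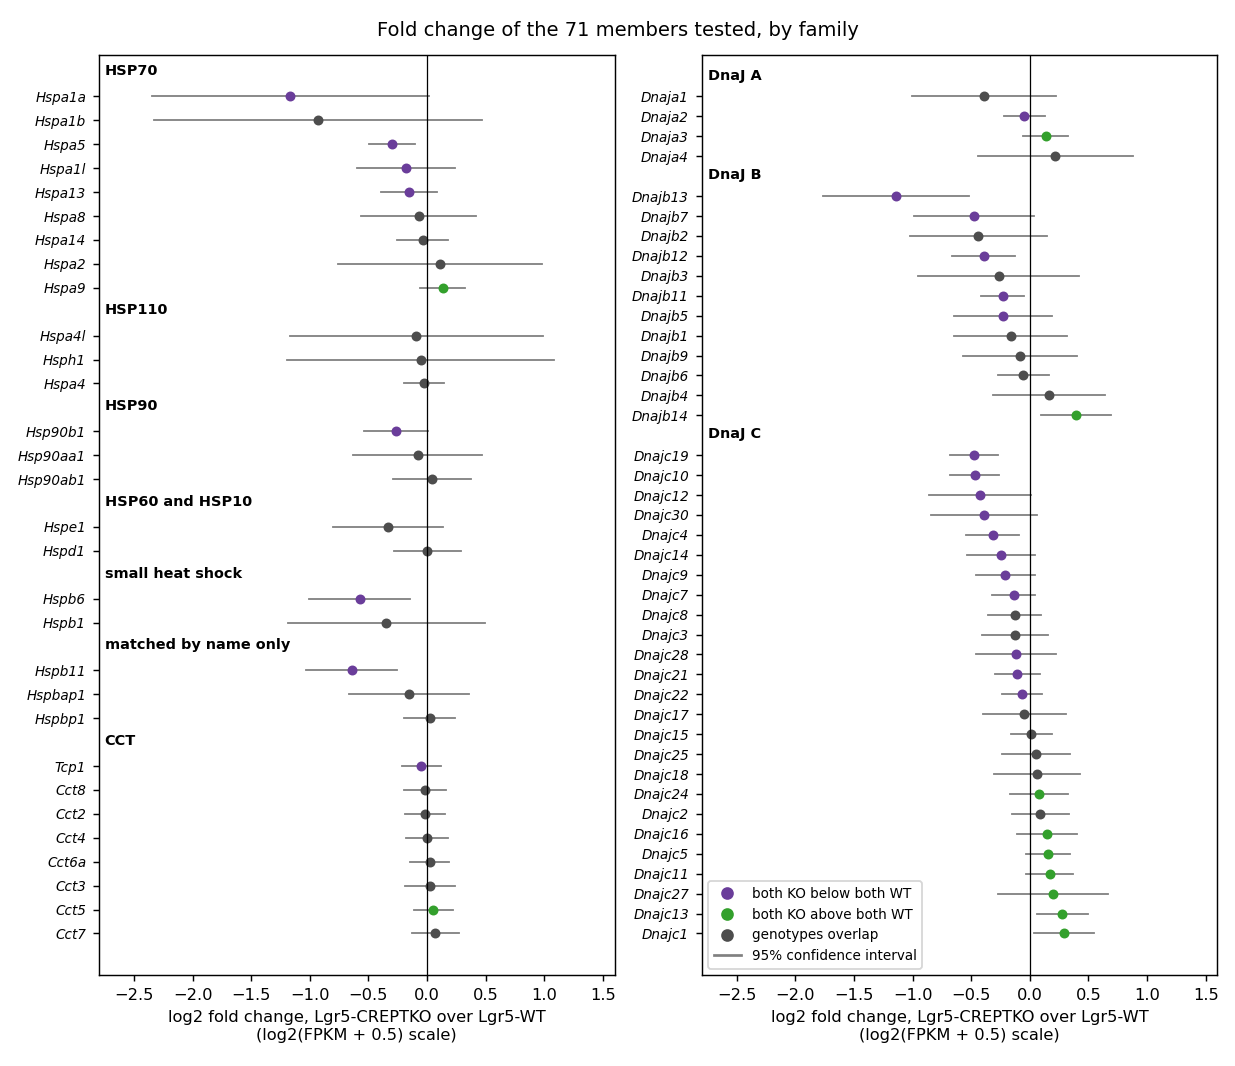
Log2 fold change of Lgr5-CREPTKO over Lgr5-WT on the log2(FPKM + 0.5) scale for the 71 members tested, grouped by family, with points for the estimate, bars for limma's 95% confidence interval, purple where both knockout mice lay below both Lgr5-WT mice, green where both lay above and grey where the genotypes overlapped. The 8 CCT genes sit between -0.048 and 0.071 with short bars, while Hspa1a, Hspa1b, Hsph1 and Hspa4l have the longest bars.

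The members differed widely in level. Their summed FPKM was 8111 and 9113 in the Lgr5-WT mice and 9034 and 7621 in the Lgr5-CREPTKO mice, or 1.64% and 1.83% against 1.93% and 1.61% of the library. Hspa8 and Hsp90ab1 together made up between 42.2% and 46.5% of that sum. Hspa8, the HSP70 that cells make without stress, ranked 12 among all genes by mean FPKM and measured 1859.8 and 2355 FPKM in Lgr5-WT mice 1 and 2 and 2309.9 and 1716 FPKM in Lgr5-CREPTKO mice 1 and 2. Hsp90ab1, the constitutive cytosolic HSP90, measured 1564 and 1864 FPKM in Lgr5-WT mice 1 and 2 and 1888 and 1641 FPKM in Lgr5-CREPTKO mice 1 and 2. For both genes the second Lgr5-WT mouse and the first Lgr5-CREPTKO mouse were the higher of their pair and the genotypes overlapped (Hspa8, log2 fold change -0.072, standard error 0.191, adjusted p = 0.855, and Hsp90ab1, log2 fold change 0.044, standard error 0.129, adjusted p = 0.869).

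The same order of mice was seen in most of a group of 11 genes that heat is known to induce. Hspa8 and Hsp90ab1, although made without stress, were counted in this group. The group was put together after the values were seen, and the order was itself noticed in the data. Hsp90aa1, the inducible HSP90, measured 374 and 434 FPKM in Lgr5-WT mice 1 and 2 and 470.1 and 309 FPKM in Lgr5-CREPTKO mice 1 and 2 (log2 fold change -0.081, standard error 0.213, adjusted p = 0.854). Dnaja1, a J-domain partner of cytosolic HSP70, measured 78.5 and 102 FPKM in Lgr5-WT mice 1 and 2 and 84.4 and 54.7 FPKM in Lgr5-CREPTKO mice 1 and 2 (log2 fold change -0.39, standard error 0.237, adjusted p = 0.376). The genotypes overlapped for both, and Lgr5-CREPTKO mouse 2 was the lowest of the 4 mice. Hsph1, an HSP110 exchange factor, had 73.5 and 131 FPKM in Lgr5-WT mice 1 and 2 and 139 and 64.2 FPKM in Lgr5-CREPTKO mice 1 and 2. Its highest and lowest values both came from the Lgr5-CREPTKO mice, so the log2 fold change of -0.055 had a standard error of 0.442 (adjusted p = 0.956), and the sign turned to 0.50 without Lgr5-CREPTKO mouse 2. Its relative Hspa4l measured 12.4 and 19.7 FPKM against 21.9 and 9.77 FPKM and followed the same order, whereas Hspa4, the third HSP110 gene, was level at 79.5 and 78.4 FPKM against 76.1 and 79.3 FPKM. Dnajb1, the principal J-domain partner of inducible HSP70, had 48.2 and 33.1 FPKM in Lgr5-WT mice 1 and 2 and 37.6 and 33.7 FPKM in Lgr5-CREPTKO mice 1 and 2 and stood highest in Lgr5-WT mouse 1 (log2 fold change -0.17, standard error 0.189, adjusted p = 0.64). Hspb1, a small heat shock protein, was near the filter at 0.8 and 0.54 FPKM against 0.24 and 0.63 FPKM and overlapped between genotypes (log2 fold change -0.35, standard error 0.326, adjusted p = 0.562).

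**Figure D2:**
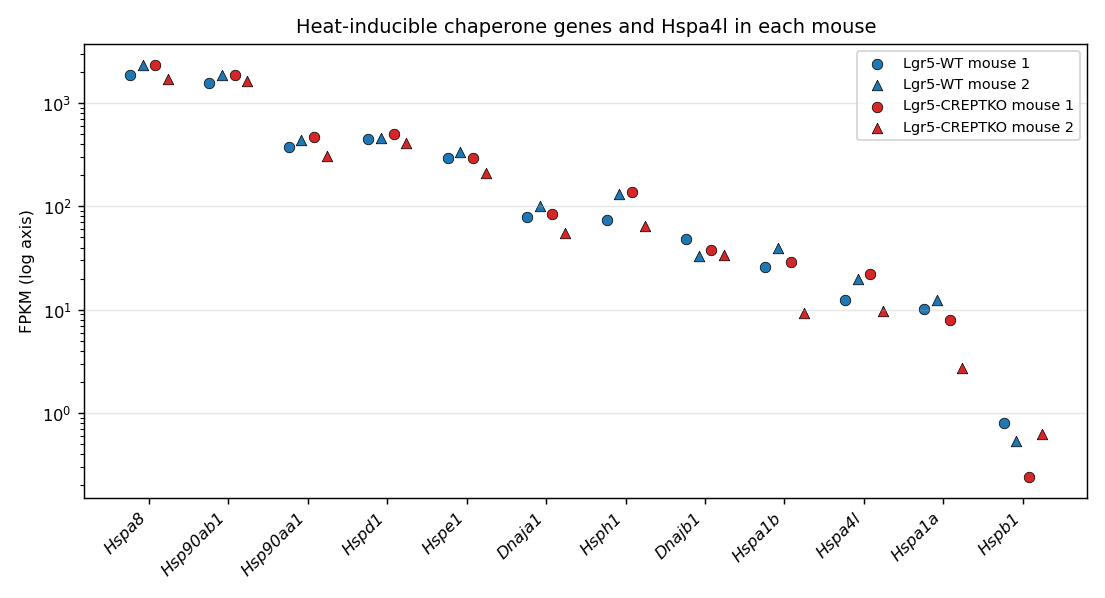
FPKM of the 11 heat-inducible members and of Hspa4l in each of the 4 mice on a log axis, with blue for Lgr5-WT, red for Lgr5-CREPTKO, circles for mouse 1 and triangles for mouse 2. Blue triangles and red circles are the upper points for most genes. The genotypes are separated only for Hspa1a, from 10.1 and 12.5 to 7.93 and 2.72 FPKM, where 56.6% of all genes tested were separated.

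Among the 71 members, 30 (42.3%) were higher in Lgr5-WT mouse 2 than in mouse 1 and also higher in Lgr5-CREPTKO mouse 1 than in mouse 2, compared with 23.2% of all genes tested. In the heat-inducible group the number was 9 of 11 (81.8%), and Dnajb1 and Hspb1 were the other 2. The 9 include Hspa8 and Hsp90ab1, for which the order was described first. The order was not confined to that group. In chaperone lists described further on, 10 of 13 other ER chaperones (76.9%) and 11 of 23 HSP90 cochaperones (47.8%) had it. In others it was less frequent, with 3 of 15 HSP70 cochaperones and 1 of 13 other mitochondrial chaperones and proteases (7.69%). Over all 79 genes tested in those lists, 32 (40.5%) had it. Summed over the heat-inducible group, FPKM was 4781 and 5764 in Lgr5-WT and 5765 and 4454 in Lgr5-CREPTKO mice. The ranges overlapped and the lowest sum was in Lgr5-CREPTKO mouse 2. Hspa8 and Hsp90ab1 made up most of each sum. The spread between mice of a genotype, as a standard deviation of log2 values, had a median of 0.321 in this group, 0.0807 over all members and 0.109 over all genes. Set against genes within 2-fold of the same mean, 7 of the 71 members (9.86%) had a spread above the 95th percentile. They were Hspa1b at percentile 99.7, Hspa4l at 99.0, Hspa1a at 98.3, Hsph1 at 97.8, Hspa8 at 97.1, Dnaja1 at 97.0 and Dnajb1 at 95.9. Immediate early genes, which respond within minutes of cell handling, gave another order, since all 16 tested were lower in Lgr5-WT mouse 2 than in mouse 1, and their sums were 3396 and 1566 FPKM against 2893 and 2774 FPKM in the Lgr5-CREPTKO mice. The tuft markers Dclk1, Trpm5 and Avil given above had the order of mice of the heat-inducible genes, and their part in these values was not tested.

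**Figure D3:**
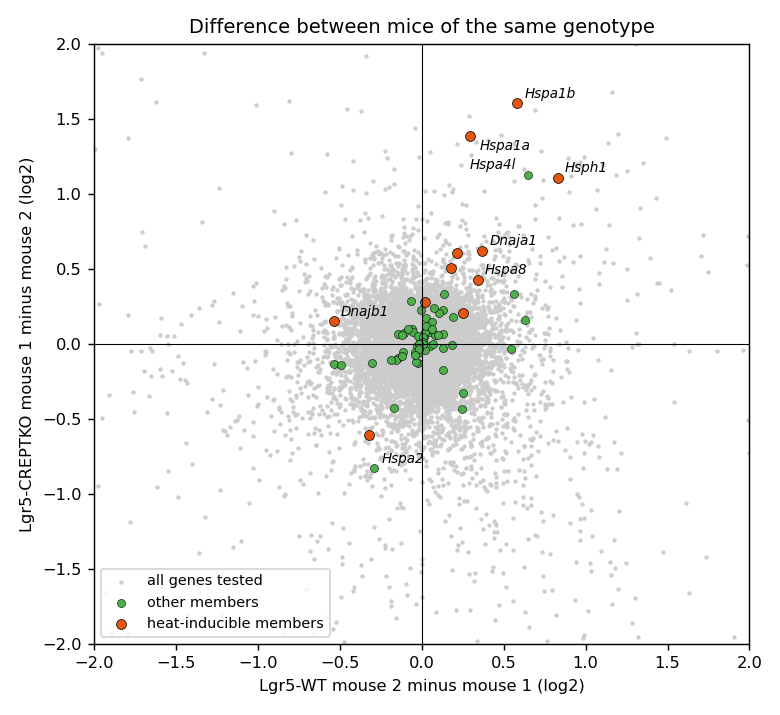
Difference between the Lgr5-WT mice (mouse 2 minus mouse 1, x axis) and between the Lgr5-CREPTKO mice (mouse 1 minus mouse 2, y axis) in log2(FPKM + 0.5), with grey for all genes tested, green for members and orange for heat-inducible members. Of the 11 orange points 9 lie in the upper right, Hspa1b, Hspa1a and Hsph1 farthest out, and 181 grey genes lie outside the axes.

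Hspa1a and Hspa1b encode the stress-inducible HSP70 and lie on chromosome 17, with the upstream sequences given above. Hspa1a measured 10.1 and 12.5 FPKM in Lgr5-WT mice 1 and 2 and 7.93 and 2.72 FPKM in Lgr5-CREPTKO mice 1 and 2, so both knockout mice were lower (log2 fold change -1.17, standard error 0.459, adjusted p = 0.209). Hspa1b measured 26.0 and 39.2 FPKM in Lgr5-WT mice 1 and 2 and 29.2 and 9.28 FPKM in Lgr5-CREPTKO mice 1 and 2, with Lgr5-CREPTKO mouse 1 between the Lgr5-WT mice (log2 fold change -0.93, standard error 0.545, adjusted p = 0.362). Without Lgr5-CREPTKO mouse 2 the log2 fold changes were -0.47 and -0.13, and without Lgr5-CREPTKO mouse 1 they were -1.86 and -1.73, so that mouse 2 set the size of both. Of the 50-base words in the longest Hspa1a transcript, 58.8% also occurred in Hspa1b, and 62.3% the other way round, so reads from the pair could be split between them in either proportion and each value is uncertain. The sum of the pair was 36.1 and 51.7 FPKM in Lgr5-WT and 37.1 and 12.0 FPKM in Lgr5-CREPTKO, and on the sum the genotypes overlapped. The testis form Hspa1l shared up to 9.57% of its words with them and was low in all mice (2.17 and 2.42 FPKM against 1.82 and 2.12 FPKM).

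Of the ER members, 12 genes grouped after their values were seen, 9 had a log2 fold change under 0 (52.3% of all genes), and none was called. Their summed FPKM was 734 and 754 in the Lgr5-WT mice and 634 and 609 in the Lgr5-CREPTKO mice, which did not overlap. Hspa5 and Hsp90b1 made up most of each sum. Hspa5, the ER HSP70 known as BiP, measured 293 and 289 FPKM in Lgr5-WT mice 1 and 2 and 226 and 247 FPKM in Lgr5-CREPTKO mice 1 and 2. Both knockout mice were lower than both Lgr5-WT mice, and the adjusted p did not pass (log2 fold change -0.30, standard error 0.0758, adjusted p = 0.101). Hsp90b1, the ER HSP90 known as Grp94, measured 267 and 292 FPKM in Lgr5-WT mice 1 and 2 and 251 and 215 FPKM in Lgr5-CREPTKO mice 1 and 2 and did not overlap (log2 fold change -0.27, standard error 0.105, adjusted p = 0.21). Dnajc10, a disulfide reductase that works with BiP, measured 17.9 and 18.8 FPKM in Lgr5-WT mice 1 and 2 and 13.1 and 13.1 FPKM in Lgr5-CREPTKO mice 1 and 2 (log2 fold change -0.47, standard error 0.0806, adjusted p = 0.057). It came closest of the ER genes to the threshold and crossed it when only genes of at least 5 FPKM were tested (adjusted p = 0.0399) or when short RNA genes were left out (adjusted p = 0.0471).

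Of the other ER members, Dnajb11, a soluble BiP partner, was 46.1 and 46.7 FPKM against 40.6 and 38.3 FPKM, and Dnajb12, a membrane J-domain protein of ER-associated degradation, was 24.2 and 26.2 FPKM against 20.5 and 17.7 FPKM. Knockout mice lay lower without overlap in both. Dnajb14, the close relative of Dnajb12, lay the other way at 4.52 and 4.11 FPKM against 5.63 and 5.99 FPKM (log2 fold change 0.39, standard error 0.117, adjusted p = 0.133), as did Dnajc1, an ER J-domain protein, at 5.75 and 5.68 FPKM against 7.10 and 7.11 FPKM (log2 fold change 0.29, standard error 0.0985, adjusted p = 0.162). Dnajc3, an inhibitor of stress kinases in the unfolded protein response, and Dnajb9, a repressor of Ire1, overlapped between genotypes at 20.1 and 21.2 FPKM against 20.6 and 17.4 FPKM and 23.9 and 16.3 FPKM against 17.8 and 19.5 FPKM. Over the 12 genes the median log2 fold change was -0.19, and -0.12 with TPM, again with 9 under 0. On FPKM 4 had an unadjusted p below 0.05 in the lower and 2 in the higher direction (15.2% and 9.27% of all genes), and 7 lay below and 3 above without overlap (31.0% and 25.6% of all genes). Of the 3 with the ER stress element, Hspa5 and Hsp90b1 lay lower without overlap and Dnajc3 overlapped. The enteroendocrine and goblet markers given above, which mark secretory cells, were also lower in the Lgr5-CREPTKO mice, and their part in the ER values was not tested.

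Mitochondrial members went both ways, with a median log2 fold change of 0.0021 over 9 genes (-0.079 with the correction for transcript length given further on), 3 below and 3 above without overlap, where 31.0% and 25.6% of all genes were. Hspd1, the HSP60 subunit, measured 452 and 459 FPKM in Lgr5-WT mice 1 and 2 and 502 and 415 FPKM in Lgr5-CREPTKO mice 1 and 2 (log2 fold change 0.0021, standard error 0.11, adjusted p = 0.994). Its lid Hspe1 measured 294 and 333 FPKM in Lgr5-WT mice 1 and 2 and 296 and 208 FPKM in Lgr5-CREPTKO mice 1 and 2 (log2 fold change -0.33, standard error 0.182, adjusted p = 0.33). Both genes, which each have a longer heat shock run in a promoter window, were lowest in Lgr5-CREPTKO mouse 2, and the genotypes overlapped for both. Hspd1 shares 38% of its 50-base words with a processed pseudogene, which makes its level less certain. Hspa9, the HSP70 of the import motor, lay higher in both knockout mice at 257 and 246 FPKM against 286 and 266 FPKM (log2 fold change 0.13, standard error 0.0745, adjusted p = 0.34), and Dnaja3, its J-domain partner in the matrix, did so at 50.2 and 51.9 FPKM against 58.1 and 54.1 FPKM.

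Dnajc19, the J-domain subunit that stimulates the import motor, had the lowest adjusted p of all members. It measured 33.7 and 32.8 FPKM in Lgr5-WT mice 1 and 2 and 22.7 and 24.8 FPKM in Lgr5-CREPTKO mice 1 and 2 (log2 fold change -0.48, standard error 0.0805, adjusted p = 0.0558), and both knockout mice were below both Lgr5-WT mice. Like Dnajc10 it passed with a minimum of 5 FPKM (adjusted p = 0.0414) and without short RNA genes (adjusted p = 0.044). Its paralog Dnajc15, at 41.2 and 40.6 FPKM against 42.0 and 40.5 FPKM, was level. Dnajc11, a protein of the mitochondrial membrane contact complex, was higher at 38.9 and 35.9 FPKM against 41.4 and 42.9 FPKM, and Dnajc30 was lower at 19.1 and 22.8 FPKM against 13.5 and 18.4 FPKM, both without overlap and with adjusted p of 0.257 and 0.249.

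The CCT ring had a smaller median spread between mice than all members together. Its 8 subunits summed to 1417 and 1435 FPKM in Lgr5-WT and 1463 and 1413 FPKM in Lgr5-CREPTKO, so the genotypes overlapped. Cct5, the most abundant, measured 251 and 246 FPKM in Lgr5-WT mice 1 and 2 and 256 and 259 FPKM in Lgr5-CREPTKO mice 1 and 2 (log2 fold change 0.055, standard error 0.0648, adjusted p = 0.65). Tcp1, the subunit that names the complex, measured 184 and 183 FPKM in Lgr5-WT mice 1 and 2 and 179 and 176 FPKM in Lgr5-CREPTKO mice 1 and 2 (log2 fold change -0.048, standard error 0.064, adjusted p = 0.697). These were the only subunits without overlap, Cct5 above and Tcp1 below, where 25.6% and 31.0% of all genes tested were. Cct7, with the log2 fold change farthest from 0, was 121 and 132 FPKM against 136 and 129.9 FPKM (log2 fold change 0.071, standard error 0.0781, adjusted p = 0.625), and Cct2, the second most abundant subunit, was 216 and 224 FPKM against 216 and 218 FPKM (log2 fold change -0.016, standard error 0.0656, adjusted p = 0.908). The other 4 subunits lay between 130.5 and 201 FPKM in every mouse, and all 4 overlapped. They were Cct3 (log2 fold change 0.025, standard error 0.0837, adjusted p = 0.886), Cct4 (log2 fold change 0.0011, standard error 0.0696, adjusted p = 0.994), Cct6a (log2 fold change 0.021, standard error 0.0647, adjusted p = 0.873) and Cct8 (log2 fold change -0.017, standard error 0.0694, adjusted p = 0.91). Over the ring the log2 fold changes ran from -0.048 to 0.071, and their 95% confidence intervals together reached from -0.21 to 0.27. The median was 0.011, and 0.09 with TPM, where all 8 were over 0. That rise follows the larger TPM factor of the Lgr5-CREPTKO libraries, which all genes share, and is not particular to the ring. The median spread between mice of a genotype was 0.036, against 0.0807 over all members. Cct6b and Cct8l1, which also match by name, were at most 0.36 FPKM.

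Outside the ER and mitochondria the J-domain proteins were mixed. Dnajb13, a component of ciliary and flagellar axonemes, had the log2 fold change farthest from 0 among the DnaJ genes, at 2.69 and 1.77 FPKM in Lgr5-WT mice 1 and 2 and 0.66 and 0.78 FPKM in Lgr5-CREPTKO mice 1 and 2 (log2 fold change -1.14, standard error 0.241, adjusted p = 0.0741), and was low in all mice. Dnajb7 was low too, at 1.26 and 1.24 FPKM against 0.74 and 0.77 FPKM (log2 fold change -0.48, standard error 0.199, adjusted p = 0.224), and separated by genotype. In the other direction, Dnajc13, which works on endosomes, had 19.7 and 18.2 FPKM in Lgr5-WT mice 1 and 2 and 23.6 and 22.5 FPKM in Lgr5-CREPTKO mice 1 and 2 (log2 fold change 0.28, standard error 0.084, adjusted p = 0.137). Dnajb4, which acts with cytosolic HSP70, overlapped at 4.08 and 3.57 FPKM against 3.67 and 5.10 FPKM (log2 fold change 0.16, standard error 0.185, adjusted p = 0.639). Abundant cytosolic forms were close to level, with Dnaja2 at 69.8 and 67.8 FPKM against 65.3 and 67.7 FPKM, Dnajb6, a suppressor of aggregation, at 60.6 and 54.7 FPKM against 53.6 and 57.3 FPKM, and Dnajc2, a partner of the ribosome, at 50.9 and 44.7 FPKM against 48.8 and 52.7 FPKM. Dnajc7, which links HSP70 and HSP90, was lower without overlap at 78.2 and 82.8 FPKM against 74.7 and 71.7 FPKM (adjusted p = 0.309), as was Dnajc9, a histone chaperone, at 44.5 and 44.5 FPKM against 41.5 and 35.5 FPKM (adjusted p = 0.263). By family, DnaJ A (4 genes) had a median log2 fold change of 0.043, DnaJ B (12 genes) of -0.23 and DnaJ C (25 of 26 genes tested) of -0.064. With TPM these medians were 0.12, -0.17 and 0.014, and with the correction for transcript length given further on 0.13, -0.11 and 0.019. The 18 J-domain genes not named ran from -0.44 to 0.22, with levels of 0.76 to 60.6 FPKM and no adjusted p under 0.117. In DnaJ B 5 genes lay below and 1 above without overlap, and in DnaJ C 11 lay below and 7 above, where 31.0% and 25.6% of all genes did.

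Small heat shock proteins were scarce in these cells. Hspb6 was the highest at 3.19 and 3.02 FPKM against 2.17 and 1.69 FPKM and lower in both knockout mice (adjusted p = 0.128), and only Hspb1 joined it above the filter, with its Lgr5-CREPTKO mean under 0.5 FPKM. Hspb2, Hspb7, Hspb8 and Hspb9 were below 1 FPKM in every mouse, as were Hspa12a, Hspa12b and the auxilin gene Dnajc6, and with Cct6b and Cct8l1 these made up the 9 members not tested. Hspa2, an HSP70 of germ cells, was 1.15 and 0.85 FPKM against 0.71 and 1.65 FPKM and overlapped (log2 fold change 0.11, standard error 0.339, adjusted p = 0.873), beside germ cell markers near 0. Hspa14, an HSP70 at the ribosome, was 40.1 and 36.1 FPKM against 38.0 and 36.2 FPKM, and Hspa13 in the ER was 8.07 and 8.12 FPKM against 7.26 and 7.20 FPKM. The remaining 3 genes match by name without belonging to a family: Hspb11, known as Ift25 of intraflagellar transport, at 7.60 and 8.40 FPKM against 5.60 and 4.35 FPKM (adjusted p = 0.0887), Hspbp1, which binds HSP70, at 34.1 and 35.7 FPKM against 37.3 and 33.6 FPKM, and Hspbap1 at 2.04 and 2.52 FPKM against 1.72 and 2.29 FPKM. Only Hspb11 was separated by genotype, with the knockout mice lower, as 31.0% of all genes tested were.

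The rest of the chaperone network was read from lists of 82 genes that hold heat shock factors, cochaperones, prefoldin subunits and other chaperones of the ER and mitochondria. Of these 79 were tested, and 4 were called lower and none higher, where 2.67% and 0.412% of all genes were called. Hsf1, the heat shock factor, measured 27.3 and 29.0 FPKM in Lgr5-WT mice 1 and 2 and 27.6 and 24.1 FPKM in Lgr5-CREPTKO mice 1 and 2 and overlapped (log2 fold change -0.13, standard error 0.0967, adjusted p = 0.474). The 4 genes called lower were Cnpy2 and Manf, which are ER proteins, Txndc9, which binds the CCT ring, and Uxt, a prefoldin-like protein. Cnpy2 fell from 65.8 and 74.0 FPKM to 38.2 and 38.9 FPKM (log2 fold change -0.85, standard error 0.0844, adjusted p = 0.0319). Manf, an ER stress protein, fell from 40.5 and 46.6 FPKM to 28.4 and 27.6 FPKM (log2 fold change -0.63, standard error 0.0937, adjusted p = 0.046). Txndc9 fell from 10.7 and 11.9 FPKM to 6.05 and 6.20 FPKM (log2 fold change -0.83, standard error 0.104, adjusted p = 0.0376), and Uxt fell from 16.1 and 15.4 FPKM to 8.22 and 9.82 FPKM (log2 fold change -0.78, standard error 0.115, adjusted p = 0.0446). Leaving out any 1 of the 4 libraries, or testing without the filter on low values, left none of these 4 called and none of the genes tested, Rprd1b and the secretory markers included. Prefoldin hands clients to the CCT ring. In its list 11 of the 12 genes lay under 0, where 52.3% of all genes did, with a median of -0.23. With TPM 10 of 12 lay under 0, with a median of -0.15. With the correction for transcript length given further on 9 of 12 did, with a median of -0.035. Other ER chaperones, the list of Cnpy2 and Manf, had 11 of 13 under 0 and a median of -0.12. With TPM 9 of 13 lay under 0, with a median of -0.044. HSP90 cochaperones had none called among 23 and a median of -0.048 (0.029 with TPM), HSP70 cochaperones none among 15 and -0.066 (0.01 with TPM), and other mitochondrial chaperones and proteases none among 13 and 0.0087. The HSP90 cochaperones Stip1, at 94.1 and 115 FPKM against 118 and 77.7 FPKM, and Ahsa1, at 109 and 137 FPKM against 135 and 95.9 FPKM, chosen after their values were seen, had the order of mice of the heat-inducible members.

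Log2 fold change was larger for longer transcripts in these libraries. Over 12185 genes with a length, the median log2 fold change went from -0.22 for transcripts up to 1000 bases to 0.12 for those over 5000 bases, with Spearman's rho 0.349 and Pearson's r 0.218. Over the 71 members rho was 0.345 and r was 0.321. These are descriptions across genes of the same 4 libraries, and genes are not independent replicates. As examples, the lower members Hspb11 (1502 bases) and Hspe1 (964 bases) have short transcripts, and the higher Dnajb14 (9477 bases) and Dnajc13 (8012 bases) long ones. Other members depart from this, since Dnaja1 (5622 bases) was lower with a long transcript. The lower members Hspa1a (2967 bases), Dnajc10 (4042 bases) and Hspa5 (3672 bases) lie in the middle. With each library's trend on length removed, an alternative added after seeing the data, the member median became -0.017. The prefoldin median became -0.035 and the ER median -0.16. Over all genes tested the same correction moved the median from -0.014 to 0.031, so a rise was not particular to these groups. Log2 fold changes after the correction were -0.45 for Dnajc10 and -0.26 for Hspa5, and -0.78 for Txndc9, -0.65 for Cnpy2, -0.54 for Uxt and -0.50 for Manf, the last 4 no longer called (adjusted p from 0.0527 to 0.0759).

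**Figure D4:**
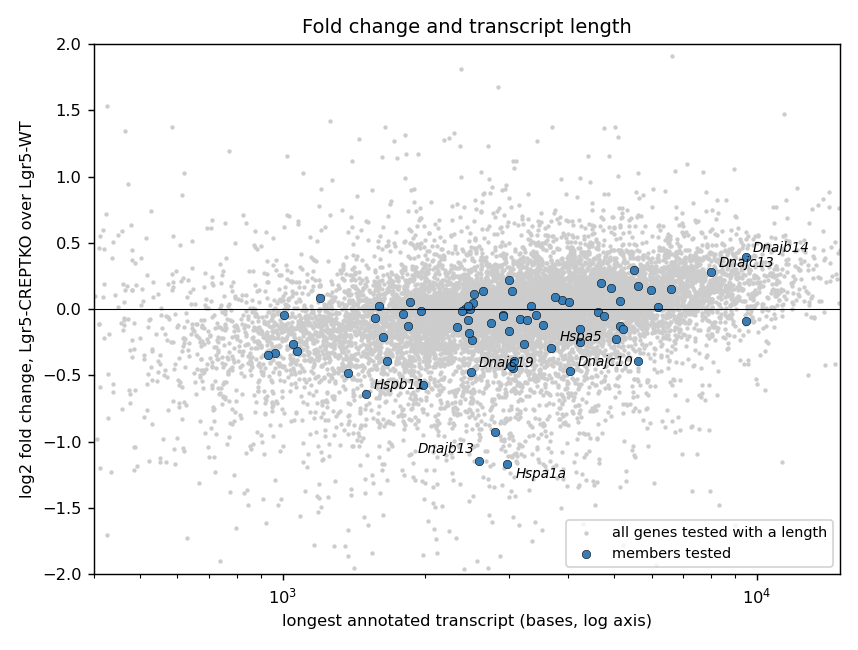
Log2 fold change of Lgr5-CREPTKO over Lgr5-WT against the length of the longest annotated transcript in bases (log axis), with grey for all genes tested that have a length and blue for the 71 members. Members run with the grey genes, from Hspb11 on the left to Dnajb14 and Dnajc13 on the right, and 362 grey genes lie outside the axes.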

How the data were processed

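RNA-seq of Lgr5-GFP high cells from 2 Lgr5-WT and 2 Lgr5-CREPTKO mice was used. Crypts were released with EDTA, dissociated with TryPLE and sorted, and Trizol RNA was sequenced on a BGISEQ-500. The authors mapped reads to GRCm38.p6 transcripts with Bowtie2 and deposited FPKM per gene from RSEM, rounded to 2 decimals; per the submitters' processing notes HISAT and mm10 were also used, in a role not given in the sources used here. The study states sorting of these cells for RNA-seq, while its account of RNA extraction names crypts and intestines. Per the study, the 2 mice of each genotype were biological replicates.

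The 12621 of 18436 genes whose mean reached 0.5 FPKM were fitted by genotype with limma 3.58.1 in R 4.3.3 (lmFit, eBayes with an intensity trend) on log2(FPKM + 0.5), with Benjamini-Hochberg adjustment and a threshold of 0.05. A count model does not suit FPKM. RSEM shares reads between near-identical copies, so values of such copies are uncertain, and 2 symbols of the table were written as dates or repeated. Transcript lengths and 50-base words came from GENCODE M21, and promoters (250 bases before to 50 after the start) and coordinates from RefSeq, both GRCm38.p6. All 80 members were found in the RefSeq gene table. Tables and plots used Python 3.11.15, pandas 2.3.3 and matplotlib 3.10.9.

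Full statistics were given to members below the threshold, to the 2 members farthest from 0 in each direction in families with at least 5 tested, to a set list of principal chaperones and, of the other lists, to called genes and Hsf1. Other members were named with their 4 values only. Members and lists were chosen with earlier results of these data known, and the compartment and heat-inducible groups after values were seen. Alternatives were pseudocounts of 0.1 and 1 FPKM, no filter or a mean of at least 5 FPKM, TPM, median centring, removal of short RNA genes, no trend, a replicate block, each mouse left out and a length correction (a spline with 5 degrees of freedom in each library). Protein features were not analysed here.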

Additional observations from a re-analysis of the deposited data

How the results depend on the processing

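Under every alternative except a minimum of 5 FPKM and the removal of short RNA genes, 0 members were called; under those alternatives 2 members, Dnajc10 and Dnajc19, were called lower and 0 higher. Without the filter on low values 0 genes of the whole table and 0 of the other lists were called in either direction, with or without a log2 fold change beyond 1, against 337 lower and 52 higher (128 and 16 with the fold) as reported, and 4 lower in the lists. Genes called higher numbered 116 (9 with the fold) at 5 FPKM and 109 without short RNA genes. TPM left 2 genes of the lists lower, 85 of the table higher and 243 lower, a member median of 0.0064 and 21 members higher without overlap. Without the intensity trend 4 genes of the table were lower and 0 higher, 4 and 0 with the fold, and 0 of the lists. Removing the trend on transcript length, added after seeing the data, left 74 lower and 8 higher, 48 and 6 with the fold, 0 of the lists and a member median of -0.017. The replicate block gave 168 lower and 15 higher, 8 of these higher with the fold, and 2 of the lists. Mice that share a number are different animals, and the deviations of same-numbered mice had a correlation of -0.0266, so the numbers were not taken as pairs. Leaving out any 1 mouse gave 0 calls in the table and 0 in the lists, lower or higher, with or without the fold; the mouse left alone was assumed to vary like the other genotype. Of the 36 genes with full statistics, 14 turned sign in at least 1 alternative, none above 0.165 in size as reported: with TPM Cct2 (0.062), Cct8 (0.061), Hspa8 (0.0064), Hsph1 (0.023) and Tcp1 (0.031), with median centring Cct2 (0.0089) and Cct8 (0.0082), and with the length correction Cct2 (0.13), Cct8 (0.095) and Tcp1 (0.0081). With 1 mouse left out, log2 fold changes ran from -0.038 to 0.040 for Cct4, -0.055 to 0.022 for Cct8, -0.43 to 0.10 for Dnajb1, -0.082 to 0.17 for Hsp90ab1, -0.14 to 0.14 for Hspd1, -0.042 to 0.0092 for Cct2, -0.38 to 0.22 for Hsp90aa1, -0.30 to 0.53 for Hspa2, -0.29 to 0.14 for Hspa8, -0.61 to 0.50 for Hsph1, -0.061 to 0.11 for Cct3, -0.0027 to 0.046 for Cct6a and -0.050 to 0.38 for Dnajb4. The cause of these shifts was not tested, apart from the fewer mice and, for the filters, the other number of genes. FPKM hold no counts, so counting error could not be set beside any value, and 2 mice a genotype limit every comparison.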
